A study of Mus musculus with 35 samples.

Results

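Livers of 5 BALB/c mice injected intravenously with SP70 silica particles at 40 mg/kg were set against livers of 5 BALB/c mice injected with SP70 at 20 mg/kg, which is the upper of 2 doublings of the SP70 dose in the study. The 10 arrays were chosen by the dose in their titles, out of 35 arrays in all, and every gene that passed the filter was compared. All mice were sacrificed 6 h after the injection and RNA was taken from the left lateral liver lobe, with 1 array per mouse. The labels place mice at random in 7 groups of 5 (SP30 at 1 dose, SP70 at 3 doses, SP300 at 2 doses, and deionized water as the vehicle) to follow dose and particle size, and the study's design names 40 mg/kg as the toxic dose of SP70. SP70 at 10 mg/kg and the vehicle, plotted as 0 mg/kg, serve below as the lower end of the dose series. The age and sex of the mice are not given in the sources used here.

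Particles that travel in the blood are held in large part in the liver sinusoids, where Kupffer cells, the resident macrophages, and fenestrated sinusoidal endothelial cells take them up. When oxygen runs short, hypoxia-inducible factors (HIFs) escape hydroxylation, accumulate, and switch on genes of glycolysis, glucose uptake and vessel growth through sites with an ACGTG or GCGTG core. Stress signals and growth factors reach the immediate early genes, such as Jun, Fos, Atf3 and Klf6, without new protein synthesis, and bacterial products or cytokines reach NF-kB targets such as chemokines and adhesion molecules.

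At 40 mg/kg, genes induced by hypoxia and immediate early genes had higher signals than at 20 mg/kg, and markers of sinusoidal endothelium had lower ones. Of 12678 genes tested, 1453 passed an adjusted p of 0.05 (11.5%), with 353 higher at 40 mg/kg (2.78%) and 1100 lower (8.68%). The genes at least 2-fold apart were divided nearly evenly, with 116 higher (0.915%) and 112 lower (0.883%). The groups did not overlap, mouse by mouse, in 320 genes for the higher direction (2.52%) and 924 for the lower (7.29%). With mouse 3 at 40 mg/kg left out, 912 genes were called, 618 of them lower, and with mouse 3 at 20 mg/kg left out 960 were called, 663 of them lower. Log2 differences are given as 40 minus 20 mg/kg with their standard error (SE), on log2 of the deposited signal plus 12.5, and adjusted p-values come from limma.

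The arrays themselves differed in level. The trimmed mean signal ran from 887 to 989 on the 5 arrays at 40 mg/kg and from 991 to 1045 on those at 20 mg/kg, without overlap, and the median log2 difference over all genes was -0.09. When each array was centred on its median, the split became 525 higher and 419 lower, and all 353 higher calls but only 419 of the 1100 lower calls were kept. The lower calls had a median log2 difference of -0.44, against 0.77 for the higher calls. Of the 228 calls of at least 2-fold, 211 were kept after centring.

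**Figure D1:**
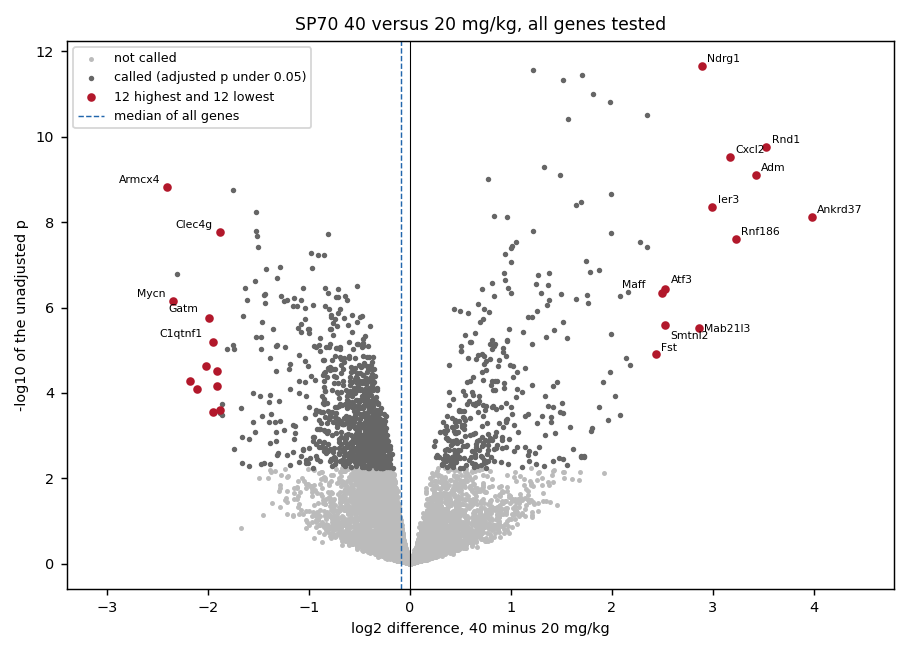
Log2 difference (horizontal axis, SP70 40 minus 20 mg/kg) against minus log10 of the unadjusted limma p (vertical axis) for the 12678 genes tested, with the 12 highest and 12 lowest called genes in red and labelled where space allows. The dashed line at -0.09 is the median of all genes, and the point farthest to the right, Ankrd37, rests on signals under the filter of 165 at 20 mg/kg.

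Markers of hepatocytes, which make up most of the tissue, stayed close to the median of all genes. None of the 19 hepatocyte markers tested was called by limma in either direction, against 11.5% of all genes. Of the 19, 1 had an unadjusted p under 0.05, and their median difference was -0.08. Alb, which encodes serum albumin, averaged 70603 ± 5652 at 40 mg/kg and 73959 ± 4863 at 20 mg/kg (SD, n = 5 each), and all 19 markers had mean signals above the filter of 165 in both groups.

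Of 30 tested HIF targets, 20 were higher at 40 mg/kg and 0 were lower, against 2.78% of all genes higher. The median over the 30 was 0.73, against -0.09 for all genes. In 20 of the 30 all mice at 40 mg/kg were above all mice at 20 mg/kg, against 2.52% of all genes. Ankrd37, an ankyrin repeat protein known as a HIF target, had signals of 1422, 732, 2737, 1388 and 1045 in the 5 mice at 40 mg/kg, against 22.1, 123, 78, 88.3 and 91.5 in the mice at 20 mg/kg. Every mouse at 20 mg/kg lay under the filter of 165 and every mouse at 40 mg/kg above it, so the fold is a lower bound, at least 8.05-fold with signals under 165 set to 165. The log2 difference was 3.98 ± 0.53 (adjusted p = 4.03e-06). Its exact size rests on signals under the filter. With the same floor the folds of Rnd1 (11.8), Adm (11.3) and Cxcl2 (9.05), genes given below, were larger.

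Adm encodes adrenomedullin, a peptide that widens blood vessels. Its signals were 2732, 1765, 2504, 5299.9 and 1518 at 40 mg/kg, against 235, 249, 235, 220.1 and 175 at 20 mg/kg. The groups were far apart, mouse 4 at 40 mg/kg was the highest, and the difference was 3.42 ± 0.41 (adjusted p = 7.73e-07). Ndrg1, a stress-responsive gene induced under low oxygen, had 4076, 2498, 4874, 5428 and 4084 at 40 mg/kg, against 479.6, 646, 396, 651 and 549 at 20 mg/kg, a difference of 2.89 ± 0.27 (adjusted p = 1.47e-08). Vegfa, the main growth factor for endothelial cells, had 7829, 6219.7, 8832, 8044 and 5706 at 40 mg/kg, against 2188, 2354, 2332, 1941 and 2234 at 20 mg/kg. All 5 mice at 40 mg/kg were more than 2-fold above the highest mouse at 20 mg/kg in both genes, and Vegfa differed by 1.71 ± 0.16 (adjusted p = 1.47e-08).

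The promoters of HIF targets that rose are shown because the members moved together and share a known core motif. Of the 20 HIF targets called higher, 18 had an entry in the RefSeq promoter table (GRCm38.p6), with 26 windows of 250 bases before a start site. Matches to ACGTG and to GCGTG, on either strand (so also CACGT and CACGC), are in capitals, and overlapping matches run together. The lines give the windows of Ankrd37 (chr8:45999851-46000100, minus strand), Adm (chr7:110627407-110627656, plus strand), Slc2a1 (chr4:119108495-119108744, plus strand), Pfkfb3 (chr2:11553930-11554179, minus strand) and Ero1a (chr14:45318573-45318822, minus strand), each from 5′ to 3′ on the strand of the gene.
Ankrd37: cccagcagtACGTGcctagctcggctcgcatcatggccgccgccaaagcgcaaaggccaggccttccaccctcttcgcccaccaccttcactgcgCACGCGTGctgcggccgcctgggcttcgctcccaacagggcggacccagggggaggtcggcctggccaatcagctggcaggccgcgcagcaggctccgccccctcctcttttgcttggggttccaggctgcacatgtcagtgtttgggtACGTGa
Adm: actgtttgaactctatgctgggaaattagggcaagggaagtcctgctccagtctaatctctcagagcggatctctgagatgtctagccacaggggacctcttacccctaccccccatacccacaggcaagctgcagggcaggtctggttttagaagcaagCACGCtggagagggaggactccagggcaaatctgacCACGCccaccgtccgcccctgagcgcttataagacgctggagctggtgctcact
Slc2a1: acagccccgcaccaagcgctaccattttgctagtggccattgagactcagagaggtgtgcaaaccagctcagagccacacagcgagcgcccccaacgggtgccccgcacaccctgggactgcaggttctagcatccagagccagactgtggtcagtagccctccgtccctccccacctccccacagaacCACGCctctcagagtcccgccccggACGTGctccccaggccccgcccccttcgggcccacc
Pfkfb3: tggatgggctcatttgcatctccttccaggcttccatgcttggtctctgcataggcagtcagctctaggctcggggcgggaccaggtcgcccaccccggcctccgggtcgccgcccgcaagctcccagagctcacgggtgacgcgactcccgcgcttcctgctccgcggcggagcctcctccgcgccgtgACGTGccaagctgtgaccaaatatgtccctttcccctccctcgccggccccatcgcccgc
Ero1a: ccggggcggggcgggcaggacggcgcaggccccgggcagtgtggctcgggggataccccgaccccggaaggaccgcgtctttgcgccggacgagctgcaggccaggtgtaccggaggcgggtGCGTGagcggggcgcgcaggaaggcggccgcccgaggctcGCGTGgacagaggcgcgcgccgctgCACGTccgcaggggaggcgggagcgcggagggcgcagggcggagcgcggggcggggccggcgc

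ACGTG was present in 16 of the 26 windows (61.5%), against 2761 of the 13084 windows of all tested genes (21.1%). GCGTG was present in 57.7% of the 26 windows, in 61.9% of the 21 windows of immediate early genes called higher and in 42.4% of all windows. ACGTG was present in 19.0% of those 21 windows. Among all called genes at least 2-fold higher, 23.6% of 123 windows held ACGTG, close to the 21.1% of all windows. The Ankrd37 window holds 4 matches and the Adm window 2, whereas 1 of the 2 Vegfa windows holds 0. Neither Vegfa window is printed above, nor is a second Pfkfb3 window, which holds 3 matches. Every printed window holds a match, so the printed lines do not stand for all windows. These matches describe letters in a fixed window and were not tested as sites. The HIF list holds genes already known as HIF targets, so its high share of ACGTG can follow from the choice of list. It therefore says nothing about the response in these livers. The 10 listed members that were not called were not scored.

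Glucose uptake and glycolysis genes were part of the same group. Slc2a1 encodes the glucose transporter GLUT1. Its signals were 6038, 4356, 6388, 7158 and 4786 at 40 mg/kg, against 1800.4, 1826, 2289.9, 1754 and 1870.2 at 20 mg/kg, and it rose by 1.57 ± 0.17 (adjusted p = 5.96e-08) with no overlap. Pfkfb3 makes the allosteric activator of phosphofructokinase, and had 4673, 3703, 5639, 8115 and 4961 at 40 mg/kg, against 1906, 1518, 402, 1137 and 819 at 20 mg/kg. The groups did not overlap, mouse 3 was the lowest at 20 mg/kg, and the difference was 2.35 ± 0.33 (adjusted p = 1.35e-05). Aldoa, the aldolase of muscle and most growing cells, had 12836, 10482, 16933, 16669 and 15977 at 40 mg/kg, against 5792, 5875, 6699, 6196 and 6208 at 20 mg/kg, a difference of 1.22 ± 0.12 (adjusted p = 1.47e-08). Of 16 tested glycolytic enzymes, 7 were higher, against 2.78% of all genes, and 1, Eno3, was lower, and the median was 0.19. Pfkl, a subunit of phosphofructokinase, rose by 0.96 ± 0.13 and Tpi1 by 0.50 ± 0.08. Tpi1 averaged 25490, 22486, 17090 and 24150 over 0, 10, 20 and 40 mg/kg, so it was lowest at 20 mg/kg and did not exceed the vehicle. Ldha, which makes lactate, was not called, at 59783 ± 4762 at 40 mg/kg and 54546 ± 3180.0 at 20 mg/kg (SD, n = 5 each), nor was Pgk1 (0.11 ± 0.08). Eno3 (-0.47 ± 0.15, adjusted p = 0.0404) was not called after centring.

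Other HIF targets called higher belonged to feedback, oxygen sensing and lipid storage. Ero1a, an oxidase of disulfide bond formation in the endoplasmic reticulum, had 7796, 4306, 9652, 8570.2 and 6401 at 40 mg/kg, against 1836, 2204, 2116, 2167 and 1779 at 20 mg/kg, a difference of 1.81 ± 0.18 (adjusted p = 2.57e-08). The prolyl hydroxylase Egln3, which marks HIF for destruction, rose by 0.96 ± 0.18, the histone demethylase Kdm3a by 1.00 ± 0.15, the lipid droplet protein Hilpda by 1.37 ± 0.23 and the transcriptional repressor Bhlhe40 by 1.25 ± 0.21. The mitophagy receptor Bnip3 was already among the brightest genes and rose by 0.51 ± 0.10, to a mean of 34298 at 40 mg/kg, against 24071 at 20 mg/kg. The 10 members that were not called included Car9 (126 at 40 mg/kg and 107 at 20 mg/kg), Angptl4 (-0.11 ± 0.18), Pdk1 (-0.24 ± 0.11) and Ddit4 (0.42 ± 0.29). Egln1, Hk2 and P4ha1 were called at adjusted p-values of 0.0338, 0.0265 and 0.0216 and each lost the call when single mice of either group were left out, so that 17 to 20 members were called with 1 mouse removed.

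**Figure D2:**
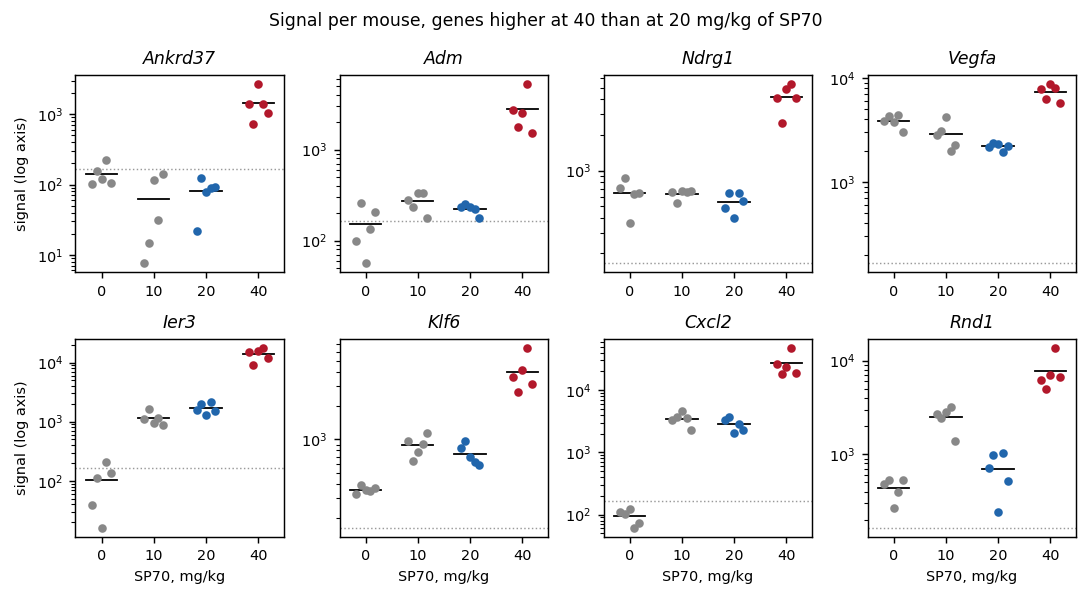
Deposited signal of each mouse (log axis) at 0, 10, 20 and 40 mg/kg of SP70 for 8 genes called higher at 40 than at 20 mg/kg, with black bars at the group means and a dotted line at the filter of 165. The 5 mice at 40 mg/kg (red) lie above all 5 mice at 20 mg/kg (blue) in each panel.

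Immediate early genes formed the second large group. Of 39 tested, 21 were higher at 40 mg/kg and 1 was lower, with a median of 0.81, against 2.78% higher, 8.68% lower and a median of -0.09 over all genes. Ier3, an early response gene that modulates cell survival, had 15067, 9024, 15745, 17779 and 11887 at 40 mg/kg, against 1549, 2026, 1296, 2165 and 1540.1 at 20 mg/kg, and rose by 3.00 ± 0.39 (adjusted p = 2.81e-06). Klf6, a zinc finger factor, had 3628, 2629, 4131, 6539 and 3084 at 40 mg/kg, against 845, 975, 705, 629.8 and 589.7 at 20 mg/kg. Mouse 4 was again the highest at 40 mg/kg, the groups did not overlap, and the difference was 2.35 ± 0.25 (adjusted p = 5.65e-08). Atf3, a stress-induced member of the ATF family, had 2389, 1743, 3865, 4637 and 1713 at 40 mg/kg, against 501, 429, 384, 463 and 469.8 at 20 mg/kg, a difference of 2.53 ± 0.40 (adjusted p = 7.15e-05).

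Subunits of AP-1, the dimeric factor made of Jun and Fos proteins, rose together. Jun had 11841, 8320.2, 13511, 14035 and 7790.1 at 40 mg/kg, against 3291, 3933, 2223, 2619.8 and 1929.7 at 20 mg/kg, a difference of 1.99 ± 0.27 (adjusted p = 8.26e-06). Junb rose by 1.70 ± 0.22, Fos by 1.43 ± 0.39 and Fosl2 by 0.96 ± 0.23, whereas Jund (-0.28 ± 0.21, adjusted p = 0.425) was not called. The small Maf protein Maff had 1256, 824, 1426, 2070.4 and 939.8 at 40 mg/kg, against 82.4, 306, 394, 165 and 232 at 20 mg/kg, and rose by 2.49 ± 0.40 (adjusted p = 8.35e-05). The antiproliferative gene Btg2 rose by 1.98 ± 0.20, the ERK phosphatase Dusp6 by 1.76 ± 0.29 and the polo-like kinase Plk3 by 1.75 ± 0.28, each without overlap between groups.

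Other immediate early genes gave no call. Dusp1 (5966 ± 1932 at 40 mg/kg and 5223 ± 1114 at 20 mg/kg, SD, n = 5 each), Egr2 (0.16 ± 0.21), Nr4a1 (0.28 ± 0.17) and Ier2 (0.39 ± 0.18) were not called. Ccn2, connective tissue growth factor, was the 1 member that fell, with 752, 971, 460.1, 884 and 906 at 40 mg/kg, against 2617, 1789.9, 3223, 1082 and 1912 at 20 mg/kg. All 5 mice at 40 mg/kg were below the lowest at 20 mg/kg, a difference of -1.36 ± 0.25 (adjusted p = 2.97e-04), while its relative Ccn1 was higher (1.17 ± 0.36, adjusted p = 0.0318). Ccn1 lost the call in 6 of 20 alternative analyses, and Myc (1.34 ± 0.37) lost it without mouse 4 at 40 mg/kg (adjusted p = 0.0581) or mouse 3 at 20 mg/kg (adjusted p = 0.0561). With 1 mouse removed, 15 to 21 members were called higher. The AP-1 motif TGANTCA, whose reverse complement is TGANTCA itself, was present in 1 of the 21 windows of immediate early genes called higher (4.76%), in 11.4% of windows of all genes called at least 2-fold higher and in 4.95% of all windows.

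**Figure D3:**
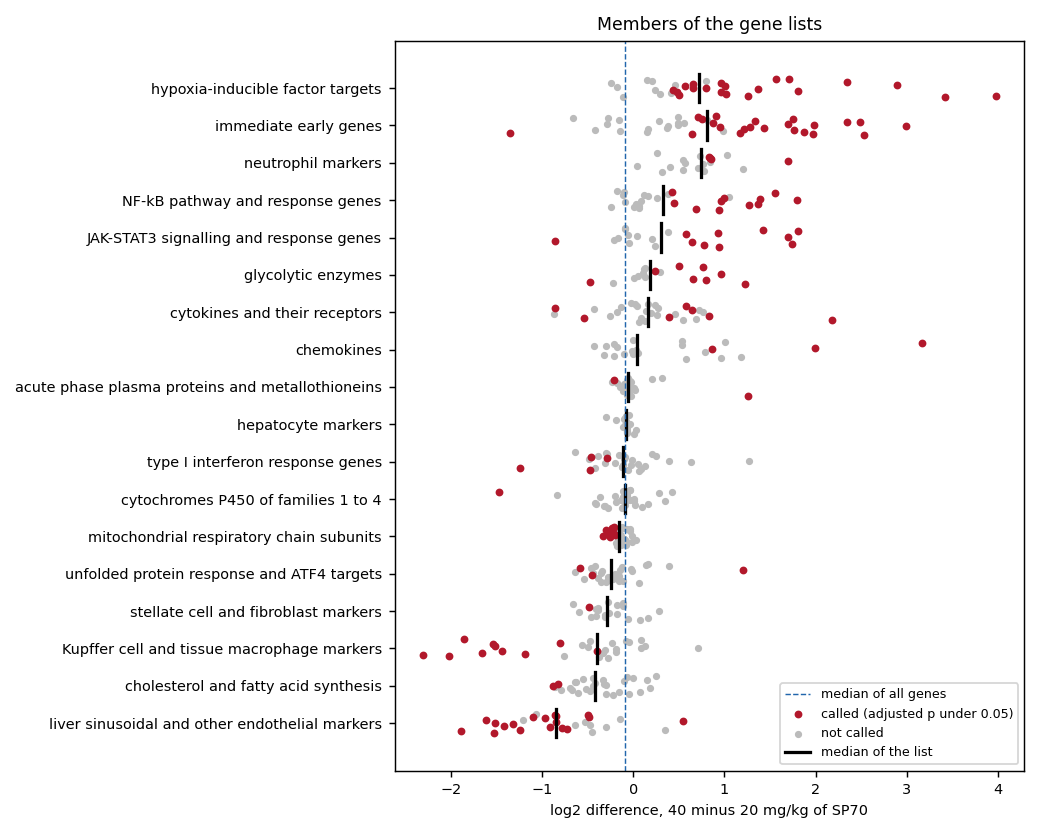
Log2 difference, SP70 40 minus 20 mg/kg, of each tested member of 18 gene lists (red points called, grey points not called), with a black bar at the median of each list and a dashed line at -0.09, the median of all genes. HIF targets and immediate early genes (medians 0.73 and 0.81) lie to the right, endothelial markers (median -0.85) to the left, and hepatocyte markers (median -0.08) on the line.

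NF-kB response genes were higher in part. Of 26 tested, 11 were higher and 0 lower, with a median of 0.32, against 2.78% higher and a median of -0.09 over all genes. Tnfaip3, which encodes the feedback inhibitor A20, had 7798, 5811, 6649, 10594 and 8423 at 40 mg/kg, against 3085, 3855, 1439, 3038 and 2341 at 20 mg/kg. The highest mouse at 20 mg/kg was below the lowest at 40 mg/kg, and the difference was 1.55 ± 0.29 (adjusted p = 4.37e-04). The adhesion molecule Icam1 had 11716, 10178, 12357, 18319 and 13949 at 40 mg/kg, against 6978, 6139.6, 4368, 6110.3 and 3971 at 20 mg/kg, a difference of 1.27 ± 0.20 (adjusted p = 4.24e-05). Irf1 rose by 1.37 ± 0.22 and Relb by 1.00 ± 0.24. Relb averaged 193, 1037, 446 and 880 over 0, 10, 20 and 40 mg/kg, so its mean at 40 mg/kg did not reach that at 10 mg/kg. Other genes of the class were close between the doses and not called, among them Tlr2 (0.11 ± 0.20), Cd14 (0.06 ± 0.26), Sod2 (-0.11 ± 0.07) and Vcam1 (-0.18 ± 0.22). Between 8 and 12 members were called with 1 mouse removed.

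Among 22 chemokines, 3 were higher, against 2.78% of all genes, and 0 lower, and with 1 mouse removed 2 to 5 were higher, with 5 without mouse 3 at 40 mg/kg. Cxcl2, which attracts neutrophils through Cxcr2, had 26497, 17827, 23723, 48001 and 18739 at 40 mg/kg, against 3308, 3687, 2032, 2892 and 2319 at 20 mg/kg. Even the lowest mouse at 40 mg/kg had more than 4 times the signal of the highest at 20 mg/kg, and the difference was 3.17 ± 0.36 (adjusted p = 3.69e-07). Cxcl10, a chemokine for T cells, had 4899.6, 2238, 4054, 9331 and 2755 at 40 mg/kg, against 1294, 1015, 548, 1568 and 971 at 20 mg/kg, a difference of 1.99 ± 0.37 (adjusted p = 3.67e-04). Cxcl1 averaged 59358 ± 6116 at 40 mg/kg and 34064 ± 10302 at 20 mg/kg (SD, n = 5 each). It differed by 0.86 ± 0.25 (adjusted p = 0.0226) and lost the call without mouse 4 at 40 mg/kg (adjusted p = 0.0511) or mouse 3 at 20 mg/kg (adjusted p = 0.108). Ccl2 (0.96 ± 0.34, adjusted p = 0.0637), Ccl3 (-0.32 ± 0.25) and Ccl4 (0.00 ± 0.17) were not called, although Ccl2 was after centring.

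Of 29 cytokines and cytokine receptors, 5 were higher and 2 lower, against 2.78% higher and 8.68% lower over all genes. The 5 became 3 without mouse 4 at 40 mg/kg or mouse 4 or 5 at 20 mg/kg, and after centring 7 were higher and 1 lower. Csf3, the granulocyte colony-stimulating factor, had 260.0, 219.9, 165, 294 and 172 at 40 mg/kg, against 66.2, 54.5, 35.1, 26.3 and 22.2 at 20 mg/kg. All mice at 20 mg/kg were under 165, so the fold with low signals set to 165 is at least 1.31, and the log2 difference was 2.18 ± 0.44 (adjusted p = 0.00122). Tnf (0.02 ± 0.35), Il1b (0.46 ± 0.18) and Il1rn (0.14 ± 0.33) were not called, although Il1b was after centring. In the JAK-STAT3 group, 9 of 20 members were higher, against 2.78% of all genes, and 1 was lower, and the count of 9 became 5 without mouse 3 at 20 mg/kg. Socs3, a feedback inhibitor of gp130 signalling, had 19132, 16749.5, 10403, 18309.6 and 14264 at 40 mg/kg, against 4871, 7424, 4118, 8487 and 4999 at 20 mg/kg, a difference of 1.42 ± 0.31 (adjusted p = 0.00265). Il6st, which encodes the gp130 receptor chain itself, fell, with 9370.4, 4382, 5449.9, 6084 and 6726 at 40 mg/kg, against 11424, 10537, 11678, 11876 and 10649.9 at 20 mg/kg (-0.85 ± 0.19, adjusted p = 0.00271). Few acute phase proteins were called, with 1 of 28 higher (A2m, 1.26 ± 0.33) and 1 lower (Saa4, -0.21 ± 0.07), against 2.78% and 8.68% of all genes. A2m lost its call without mouse 3 at 20 mg/kg (adjusted p = 0.0584), and Saa4 was not called after centring.

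Markers of neutrophils had a median difference of 0.75, but few single genes passed the test. Of 18 tested, 4 were called higher (S100a8, S100a9, Ngp and Mmp9) and 0 lower, against 2.78% and 8.68% of all genes. S100a8, a subunit of calprotectin, had 26568, 20346, 14054, 31473 and 20462 at 40 mg/kg, against 13382, 12918, 14984, 10227 and 10122 at 20 mg/kg. Mouse 3 at 40 mg/kg lay within the range of the 20 mg/kg group, and the difference was 0.84 ± 0.23 (adjusted p = 0.0167). Without mouse 4 at 40 mg/kg no neutrophil marker was called, and S100a8 then differed by 0.70 (adjusted p = 0.0588). The summed signal of the 18 markers ran from 32118 to 74426 at 40 mg/kg and from 23217 to 35208 at 20 mg/kg, which overlap. It averaged 52832 and 29392. Most of it came from S100a8 (means 22581 and 12327) and S100a9 (18826 and 10175), so it says little about the other markers. With 1 of the other mice removed, 1 to 5 markers were called. The part of these markers in the chemokine differences was not tested.

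Markers of the sinusoidal and other endothelium fell. Of 27 tested, 17 were lower at 40 mg/kg, against 8.68% of all genes, and 1 was higher, with a median of -0.85. In 18 of the 27 all mice at 40 mg/kg were below all mice at 20 mg/kg, against 7.29% of all genes. Clec4g, the sinusoidal lectin LSECtin, had 1808, 1373, 467, 1727 and 1077 at 40 mg/kg, against 4905, 4363, 4184, 3933 and 4452 at 20 mg/kg. Mouse 3 at 40 mg/kg was the lowest, and the difference was -1.89 ± 0.26 (adjusted p = 7.77e-06). In whole tissue, fewer cells of a type and less RNA per cell cannot be told apart.

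Kdr, the main receptor for Vegfa on endothelium, had 546, 418, 169, 351 and 429 at 40 mg/kg, against 1066, 1048, 1069, 944 and 1136 at 20 mg/kg, a difference of -1.52 ± 0.21 (adjusted p = 9.12e-06). Its ligand rose in the same livers, as given above. Bmp2, which endothelial cells send to hepatocytes to set hepcidin, had 569, 271, 332, 418 and 392 at 40 mg/kg, against 1194, 991, 1291, 888 and 1386 at 20 mg/kg, a difference of -1.53 ± 0.21 (adjusted p = 7.77e-06). Oit3 had 386, 418, 231, 461 and 345 at 40 mg/kg, against 1181, 1211, 1343, 837 and 1117 at 20 mg/kg, and Gpr182, an atypical chemokine receptor, had 425, 762, 467, 736 and 561 at 40 mg/kg, against 1602, 1109, 1459.8, 1626 and 1542 at 20 mg/kg. No mouse of one dose reached the range of the other in any of the 4 genes, and the differences of the last 2 were -1.61 ± 0.27 and -1.32 ± 0.20.

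The defining endothelial markers covered a range. The scavenger receptor Stab1 differed by -0.84 ± 0.14 and its paralog Stab2 by -0.50 ± 0.13. Stab2 lost the call without mouse 3 at 40 mg/kg (-0.39, adjusted p = 0.0518). Lyve1, the hyaluronan receptor, averaged 3416 ± 1519.6 at 40 mg/kg and 4374 ± 1062 at 20 mg/kg (adjusted p = 0.45). The junction protein Cdh5 averaged 867 ± 260.4 at 40 mg/kg and 1141 ± 69.9 at 20 mg/kg (SD, n = 5 each, adjusted p = 0.244), and neither was called. Nos3, the endothelial nitric oxide synthase, was the 1 member called higher (0.54 ± 0.15, adjusted p = 0.0166), but not without mouse 3 at 40 mg/kg (adjusted p = 0.0554). The summed signal of the 27 markers ran from 13583 to 25307 at 40 mg/kg and from 33170 to 40822 at 20 mg/kg, without overlap, and 15 were still called lower after centring. With 1 mouse removed, 14 to 19 were called lower. The summed signal averaged 47227, 40752, 37192 and 21979 at 0, 10, 20 and 40 mg/kg, so part of the decrease came before the last step. The receptor chain Calcrl, through which adrenomedullin acts on endothelium, fell too (-0.70 ± 0.16, adjusted p = 0.00404), as did Smad6 (-0.71 ± 0.18) and Smad7 (-0.83 ± 0.22), inhibitors that BMP signalling induces. Over 0, 10, 20 and 40 mg/kg Smad6 averaged 501, 502, 814 and 499 and Smad7 401, 692, 736 and 413, so the means at 40 mg/kg were close to the vehicle and those at 20 mg/kg were the highest. The part of the summed endothelial signal in these 3 genes was not tested.

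Kupffer cell markers fell in part. Their means were under 165 in 11 of 27 at 40 mg/kg and in 5 of 27 at 20 mg/kg. Of the 27, 10 were lower at 40 mg/kg, against 8.68% of all genes, and 0 higher, with a median of -0.40, and 7 were lower after centring. C1qc, a chain of complement C1q made by macrophages, had 11, 11.9, 11, 18.9 and 13.9 at 40 mg/kg, against 169.5, 196, 173, 151 and 16.5 at 20 mg/kg. All 5 mice at 40 mg/kg and 2 at 20 mg/kg lay under 165, so with low signals set to 165 the fold is only 1.05, although the log2 difference was -2.31 ± 0.35 (adjusted p = 4.05e-05), and -1.46 with a pseudocount 4 times as large. Vsig4, a complement receptor of resident macrophages, had 166, 172, 15.2, 171 and 16.6 at 40 mg/kg, against 438, 367, 278, 251 and 221 at 20 mg/kg, a difference of -1.86 ± 0.47 (adjusted p = 0.00789). The lectin Clec4f, a marker of mouse Kupffer cells, had 65.3, 57.5, 158, 8.46 and 20.7 at 40 mg/kg, against 258, 242, 178, 217 and 19.5 at 20 mg/kg, with overlap (-1.44 ± 0.47, adjusted p = 0.0425). Clec4f, Cd163 and Csf1r, all with adjusted p-values near 0.05, lost the call in 12, 13 and 11 of 20 alternative analyses.

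Several of these markers were higher at the lower doses. The mean of Clec4f was 3784, 941, 183 and 62 at 0, 10, 20 and 40 mg/kg, and that of Csf1r, the receptor for the macrophage growth factor, was 10556, 4952, 1740.0 and 1320.4. Among the 6 defining markers, Clec4f, Timd4, Vsig4, Cd5l, Marco and Cd163, all 6 had means under 165 at 40 mg/kg, and 3 of them did at 20 mg/kg. The summed signal of the 27 markers ran from 26938 to 33671 at 40 mg/kg and from 33971 to 39081 at 20 mg/kg. The transcription factor Maf was an exception in level. It had 3194, 2439, 2132, 2485 and 1901 at 40 mg/kg, against 6496, 6059.7, 6311, 7996 and 7869.7 at 20 mg/kg, a difference of -1.52 ± 0.20 (adjusted p = 3.54e-06), and its means of 8832, 6536, 6946 and 2430.2 over the 4 doses show most of the decrease at the last step. Mrc1, the mannose receptor of macrophages and sinusoidal endothelium, had 715, 455, 231, 469.7 and 523 at 40 mg/kg, against 1376, 1229.8, 1389, 1339 and 1355 at 20 mg/kg (-1.54 ± 0.24, adjusted p = 5.37e-05).

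**Figure D4:**
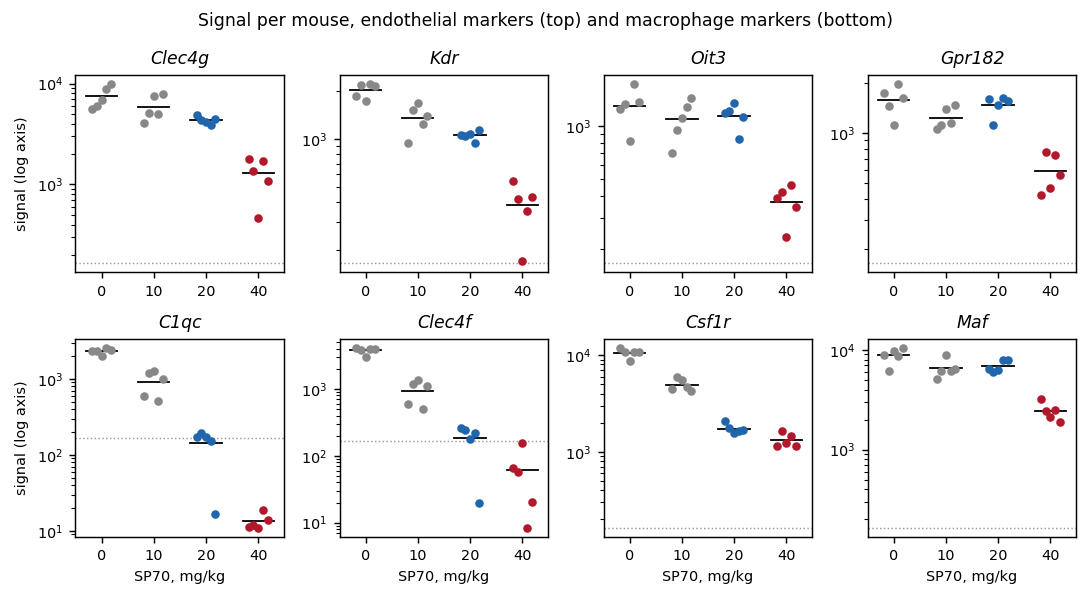
Deposited signal of each mouse (log axis) at 0, 10, 20 and 40 mg/kg of SP70 for 4 endothelial markers (top) and 4 macrophage markers (bottom), with black bars at the group means and a dotted line at the filter of 165. Endothelial markers and Maf drop between 20 (blue) and 40 mg/kg (red). Over the 4 doses the means of Kdr (2035, 1357, 1053 and 383) and Clec4g (7501, 5909, 4367 and 1290) also decrease below 40 mg/kg. C1qc, Clec4f and Csf1r are already far below the vehicle at 20 mg/kg.

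Few markers of other cell types were called, and the shares over all genes were 2.78% higher and 8.68% lower. Of 20 stellate cell and fibroblast markers, 1 was called lower (Pdgfrb, -0.49 ± 0.14), and it was not called after centring. Of 12 monocyte markers, 2 were lower, Lyz2 (-0.87 ± 0.17) and Mpeg1 (-0.53 ± 0.16), the second not after centring. No marker of B cells (7 tested), T and NK cells (8) or dendritic cells (8) was called by limma, and 1 of these, a B cell marker, had an unadjusted p under 0.05. Of 4 bile duct markers, Tspan8 was called higher (0.61 ± 0.20, adjusted p = 0.0418), a call lost in 11 of 20 alternative analyses, and Sox9 was not called (-0.80 ± 0.35, adjusted p = 0.135). Sox9 averaged 168, 401, 1018 and 652 over 0, 10, 20 and 40 mg/kg, and its upper step was more negative than its lower (-2.16 ± 0.61, adjusted p = 0.023), which was lost in 5 of 24 alternative analyses. Of 6 red cell and platelet markers, 2 were higher, the platelet chemokines Pf4 (0.60 ± 0.15) and Ppbp (1.37 ± 0.21, adjusted p = 4.03e-05). The platelet surface genes Itga2b (0.06 ± 0.15, adjusted p = 0.832) and Gp1bb (-0.32 ± 0.28, adjusted p = 0.501) were not called, and Alas2, of red cell precursors, averaged 5865 ± 743 at 40 mg/kg and 6034 ± 1708 at 20 mg/kg (SD, n = 5 each).

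Metabolic genes of hepatocytes were called in both directions. Igfbp1, a secreted binding protein that fasting and stress induce in hepatocytes, had 71603, 63965, 70568, 88664 and 74879 at 40 mg/kg, against 28993, 44121, 15674, 12084 and 11525 at 20 mg/kg. The groups did not overlap, and it rose by 1.92 ± 0.42 (adjusted p = 0.00226). Tsc22d3, the glucocorticoid target GILZ, fell, with 1829, 1829, 2402, 2839 and 2310.4 at 40 mg/kg, against 6773, 7942, 7679, 6760.3 and 8458 at 20 mg/kg (-1.76 ± 0.22, adjusted p = 1.40e-06), while the glucocorticoid receptor Nr3c1 rose by 0.59 ± 0.11. Over 0, 10, 20 and 40 mg/kg Nr3c1 averaged 5365, 4565, 3513 and 5321, so it was lowest at 20 mg/kg and near the vehicle at 40 mg/kg. G6pc, the last enzyme of glucose release, fell (-1.20 ± 0.25, adjusted p = 0.00139), and Pck1 was not called (-0.33 ± 0.12, adjusted p = 0.0569). Of the 23 gluconeogenesis, glucocorticoid and FOXO1 genes tested, 5 were higher and 6 lower, with a median of -0.07 that became 0.04 after centring, against 2.78% higher and 8.68% lower over all genes. The 5 became 3 without mouse 4 or 5 at 40 mg/kg or mouse 3 or 5 at 20 mg/kg.

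Nr0b2, the bile acid induced repressor SHP, had 2273, 1335, 915, 1767 and 1930.3 at 40 mg/kg, against 5168, 6436, 3628, 5292 and 8223 at 20 mg/kg. It fell without overlap (-1.81 ± 0.35, adjusted p = 6.24e-04), and 4 of 30 bile acid and transporter genes were lower in all, against 8.68% of all genes, and 0 higher. The 4 became 2 after centring or without mouse 3 at 20 mg/kg. Ass1, which joins citrulline to aspartate in the urea cycle, had 420.3, 490.1, 358, 415 and 362 at 40 mg/kg, against 1208, 849, 1486, 1216 and 832 at 20 mg/kg (-1.40 ± 0.33, adjusted p = 0.00491). The probe set of Ass1 was dim beside those of other urea cycle genes. At 40 and 20 mg/kg Otc averaged 35691 and 44750, and Cps1 69004 and 74697. Whether the probe set of Ass1 reads its main transcript was not tested. Of 29 urea cycle and amino acid genes 6 were lower, against 8.68% of all genes and 4 after centring, among them Hal (-0.80 ± 0.17) and Cth (-0.55 ± 0.11), and 0 were higher. Ppp1r3c, which brings protein phosphatase 1 to glycogen, had 2479.9, 3121, 1944, 3265 and 4045 at 40 mg/kg, against 8252, 8968, 10016, 14178 and 14370.3 at 20 mg/kg, a difference of -1.91 ± 0.40 (adjusted p = 0.00152). Of 36 cytochromes P450, 1 was called, Cyp4b1 (-1.48 ± 0.28), against 8.68% of all genes lower. Of 49 respiratory chain subunits, 9 were called lower, against 8.68% of all genes, with differences from -0.33 to -0.20, and 0 after centring. The 9 ranged from 2, without mouse 3 at 20 mg/kg, to 13 with 1 mouse removed.

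Growth hormone and STAT5 genes were higher in 4 of 16 cases and lower in 0, against 2.78% and 8.68% of all genes. Cish, a STAT5-induced feedback inhibitor, had 3554, 3133, 3856, 4963 and 3802 at 40 mg/kg, against 1493, 1475, 661, 1400.3 and 917 at 20 mg/kg (1.74 ± 0.26, adjusted p = 2.48e-05), and Ghr, the growth hormone receptor, rose by 0.37 ± 0.09. Socs2 (1.41 ± 0.46, adjusted p = 0.0388) lost the call in 9 of 20 alternative analyses. Over 0, 10, 20 and 40 mg/kg Cish averaged 3419, 1710, 1189 and 3862, Ghr 47812, 43504, 28956 and 37441, and Socs2 5999, 3753, 1445 and 3836. Each was lowest at 20 mg/kg, and Ghr and Socs2 stayed below the vehicle at 40 mg/kg. Igfbp1, the other called member, was lowest in the vehicle (7304, 40473, 22479 and 73936). Hmox1, which degrades heme and is a target of NRF2 and HIF, had 4781, 3092, 5778, 7608 and 4231 at 40 mg/kg, against 1582, 1131, 736, 1004 and 729 at 20 mg/kg. It rose by 2.28 ± 0.32 (adjusted p = 1.13e-05), as the 1 higher member of 22 NRF2 targets, of which 3 were lower, Gclm (-0.52 ± 0.08), Abcc2 (-0.66 ± 0.14) and Abcc4 (-1.16 ± 0.35). These NRF2 counts stand against 2.78% higher and 8.68% lower over all genes. All 3 growth arrest genes of the GADD45 family rose, Gadd45a by 2.16 ± 0.35, Gadd45b by 1.33 ± 0.31 and Gadd45g by 1.51 ± 0.36. Anticoagulant receptors of endothelium were higher, Procr by 1.78 ± 0.27 (adjusted p = 3.81e-05) and Thbd by 1.02 ± 0.21 (adjusted p = 0.00124), opposite to most endothelial markers. In their list of 26 tested coagulation and fibrinolysis genes, 3 were higher and 3 lower, against 2.78% and 8.68% of all genes. After centring 3 were higher and 1 lower. The coagulation factor gene F8 of that list fell without overlap (-0.86 ± 0.20, adjusted p = 0.00523).

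Among the 12 highest genes, several are in no list. Rnd1 had 6244, 4953, 7104, 13758 and 6743 at 40 mg/kg, against 706, 985, 239, 1022 and 523 at 20 mg/kg, a difference of 3.53 ± 0.40 (adjusted p = 2.45e-07). Rnf186, a RING finger ubiquitin ligase, had 1419.8, 920.3, 1697, 1941 and 933 at 40 mg/kg, against 12.4, 194, 174, 149.8 and 363 at 20 mg/kg (3.23 ± 0.45). Fst, which encodes the activin-binding protein follistatin, had 900.4, 839.7, 899.6, 2174 and 1176 at 40 mg/kg, against 155, 144, 169, 360.5 and 213 at 20 mg/kg (2.43 ± 0.48). All 5 mice at 40 mg/kg were above all at 20 mg/kg in each, with mouse 4 the highest. Mab21l3 (2.86 ± 0.52) and Smtnl2, a smoothelin-like protein, complete the 12 with the genes named above. Smtnl2 was under 165 in all 5 mice at 20 mg/kg, so its fold is at least 2.2.

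Among the 12 lowest genes, Armcx4, an armadillo repeat protein, had 324, 269, 90.7, 375 and 333 at 40 mg/kg, against 1159, 1617, 1142, 1716 and 1427 at 20 mg/kg, a difference of -2.41 ± 0.30 (adjusted p = 1.24e-06). Mycn, a MYC family transcription factor, had 180.4, 213, 232, 192 and 121 at 40 mg/kg, against 697, 1022, 799.5, 1329 and 1234 at 20 mg/kg (-2.35 ± 0.39, adjusted p = 9.82e-05). Neither gene's groups overlapped. Mmp12 (-2.19 ± 0.47), a macrophage elastase, and C1qa (-2.03 ± 0.41), the partner of C1qc, were lower with overlap. Gatm (-1.99 ± 0.35), the first enzyme of creatine synthesis, Arhgef15 (-2.12 ± 0.47), C1qtnf1 (-1.95 ± 0.37), Fam167b (-1.91 ± 0.42), 6430590A07Rik (-1.95 ± 0.48) and N4bp2l2 (-1.88 ± 0.46) were lower without overlap. Clec4g and Ppp1r3c are the other two. Most mice at 40 mg/kg were under 165 in Arhgef15 (5 of 5), Gatm, N4bp2l2, C1qa, Mmp12 and 6430590A07Rik (4 each) and C1qtnf1 (3), so the sizes and ranks of these 7 genes rest on signals under the filter. With signals under 165 set to 165, their folds of 20 over 40 mg/kg were 1.24 for Arhgef15, 1.68 for Gatm, 1.57 for N4bp2l2, 1.69 for C1qa, 1.81 for Mmp12, 2.28 for 6430590A07Rik and 2.1 for C1qtnf1.

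Whether the second doubling acted differently from the first was tested directly, as the log2 difference of 40 minus 20 mg/kg less that of 20 minus 10 mg/kg. Both steps share the 20 mg/kg arrays, so a group value at 20 mg/kg enters both with opposite sign. The steps differed in 884 genes (6.97%), of which 338 were more positive at the upper step (2.67%) and 546 more negative (4.31%). After centring the split was 612 more positive and 430 more negative. Without mouse 4 at 20 mg/kg 519 genes were called and without mouse 5 at 20 mg/kg 535, while without mouse 3 at 20 mg/kg the more negative calls numbered 353. HIF targets were more positive in 15 of 30 cases and more negative in 0. Their median was 0.73 at the upper step and -0.16 at the lower, against -0.09 and -0.05 for all genes. Vegfa averaged 3864, 2879, 2209.8 and 7326 at 0, 10, 20 and 40 mg/kg and its steps differed by 2.04 ± 0.28 (adjusted p = 3.94e-05). Adm averaged 152, 271, 223 and 2764 (3.67 ± 0.71, adjusted p = 0.00123) and Ndrg1 642, 639.8, 544 and 4192 (3.14 ± 0.47, adjusted p = 1.27e-04). None of the 3 was higher at 20 than at 10 mg/kg.

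**Figure D5:**
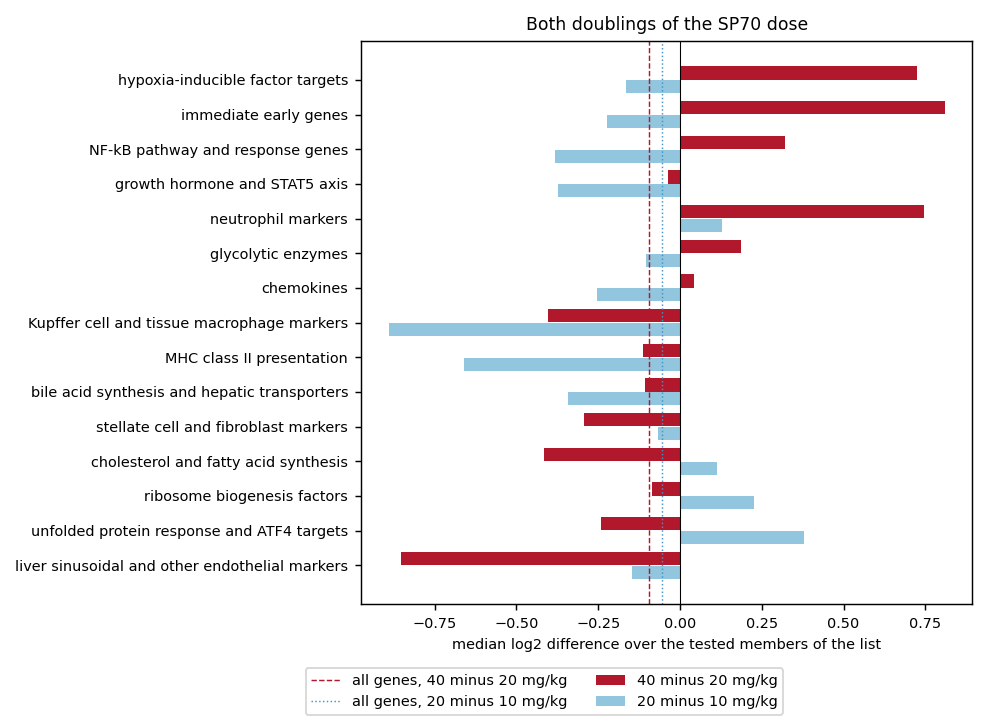
Median log2 difference over the tested members of 15 gene lists at the upper doubling (red, 40 minus 20 mg/kg) and the lower doubling (light blue, 20 minus 10 mg/kg) of SP70, with lines at the medians of all genes (-0.09 dashed and -0.05 dotted). Upper and lower medians were 0.73 and -0.16 for HIF targets, 0.81 and -0.22 for immediate early genes, -0.85 and -0.15 for endothelial markers, and -0.40 and -0.89 for Kupffer cell markers.

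Several of the genes whose steps differed most had lower means at 20 than at 10 mg/kg and higher means at 40 mg/kg. Ranking by the difference of the steps favours such genes, so this course can follow from the selection. Rnd1 averaged 440.4, 2503, 695 and 7760.3 over 0, 10, 20 and 40 mg/kg, and its steps differed by 5.47 ± 0.69 (adjusted p = 1.05e-05), the largest value. Cxcl10 averaged 297, 4323, 1079 and 4656 (4.01 ± 0.63, adjusted p = 1.86e-04). Rgs16, a regulator of G protein signalling, averaged 859, 6033, 1125 and 4302 (4.44 ± 0.91), and Depp1, a FOXO target of autophagy, averaged 2127, 6779, 2246 and 8988 (3.80 ± 0.59). All 4 genes had a mean at 20 mg/kg nearer to the vehicle than to 10 mg/kg. Maff (4.02 ± 0.70) and Rnf186 (4.44 ± 0.78) complete the 6 most positive genes. Hmox1 followed the same course, at 465, 2365, 1037 and 5098 (3.44 ± 0.56, adjusted p = 2.30e-04), as did Icam1, at 788, 10176, 5513 and 13304 (2.19 ± 0.34, adjusted p = 1.57e-04). Of the NF-kB genes, 9 of 26 were more positive at the upper step and 1 more negative, against 2.67% and 4.31% of all genes. The count of 9 became 5 without mouse 5 and 6 without mouse 3 at 20 mg/kg, and 14 after centring.

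Few single endothelial or Kupffer cell markers had steps that differed. Over all genes the upper step was more positive in 2.67% and more negative in 4.31%. Of 27 endothelial markers, 4 were more negative at the upper step, Gpr182 (-1.57 ± 0.35, adjusted p = 0.00501), Oit3 (-1.69 ± 0.46), Clec4g (-1.49 ± 0.45) and Kdr (-1.18 ± 0.36), and Egfl7 was more positive (0.84 ± 0.23). Clec4g and Kdr lost that call in 9 and 11 of 24 alternative analyses, and with 1 mouse removed the count ran from 1 to 8. Of 27 Kupffer cell markers, Maf was more negative (-1.62 ± 0.34) and Csf1r (1.10 ± 0.22, adjusted p = 0.00212) and Hpgd (0.91 ± 0.26) were more positive. Csf1r differed by -1.50 at the lower step and by -0.40 at the upper.

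Some genes of the unfolded protein response had a more negative upper step. Of 30 tested, 12 did, against 4.31% of all genes, 0 were more positive and 18 did not pass, with medians of -0.24 at the upper step and 0.38 at the lower. Sel1l, part of the channel that clears misfolded proteins, had 8824, 7971, 8445, 7281 and 9236 at 40 mg/kg, against 11360.4, 11446, 12327, 13180.0 and 14581 at 20 mg/kg. The groups did not overlap, and over 0, 10, 20 and 40 mg/kg it averaged 7138, 8450.4, 12579 and 8351 (-1.17 ± 0.21, adjusted p = 6.13e-04). Herpud1, of the same pathway, averaged 21458, 42838, 51321 and 37692 (-0.72 ± 0.18, adjusted p = 0.00871), and the chaperone Hspa5 averaged 37772, 55659, 71341 and 62198 (-0.56 ± 0.19, adjusted p = 0.0615), which was not called. Between 40 and 20 mg/kg alone only Sel1l (-0.59 ± 0.12) and Herpud1 (-0.45 ± 0.10) were lower, and Ppp1r15a, a target of ATF4, was higher (1.21 ± 0.21). The count of 12 became 4 without mouse 5 and 6 without mouse 4 at 20 mg/kg. Of 29 cholesterol and fatty acid synthesis genes 2 were more negative at the upper step, Lss (-1.95 ± 0.45) and Mvd (-1.73 ± 0.44), near the 4.31% of all genes. Of 35 ribosome biogenesis factors 4 were, against 4.31% of all genes, among them Nolc1 (-1.47 ± 0.33), Nop58 (-1.34 ± 0.33) and Ftsj3 (-1.24 ± 0.27).

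The 6 most negative genes were 6430590A07Rik (-3.46 ± 0.84), N4bp2l2 (-3.17 ± 0.80), Mycn (-3.01 ± 0.67), Armcx4 (-2.99 ± 0.51), Fam209 (-2.70 ± 0.83) and Bhlha15 (-2.68 ± 0.73). Bhlha15, a transcription factor of secretory cells, averaged 50.1, 189, 704 and 446 over 0, 10, 20 and 40 mg/kg and was not called between 40 and 20 mg/kg alone (adjusted p = 0.332). Armcx4 averaged 475, 964, 1412 and 278 and Mycn 550.2, 652, 1016 and 188, so both were highest at 20 mg/kg and lowest at 40 mg/kg. A rank among the most negative genes favours those high at 20 mg/kg. Fam209 averaged 157, 76.8, 179 and 85.8, close to the filter of 165, and lost the call in 13 of 23 alternative analyses.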

How the data were processed

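Gene expression was measured on 35 Affymetrix arrays, 1 per mouse. Per the submitters' processing notes, the deposited intensity of each of 45101 probe sets is a MAS5 signal on a linear scale, and how it was scaled is not stated in the labels. Signals were kept as deposited, 64 control probe sets were left out, and a probe set was kept with a signal over 165 (the overall median) on 5 or more arrays. Probe sets of 1 gene in the platform annotation were used, and the one with the highest mean stood for the gene (5735 genes had several). Values were tested as log2(signal + 12.5), where 12.5 is the 10th percentile of all signals, so that fold changes of dim genes are understated. The fit was limma 3.58.1 in R 4.3.3, with 1 mean for each of 7 groups, a variance trend, Benjamini-Hochberg adjustment over 12678 genes and a threshold of 0.05. Fold bounds are geometric means with signals under 165 set to 165.

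The genes named were, by rule, the 12 highest and 12 lowest called genes whose higher group lay above the filter and whose 5 mice at 40 mg/kg all lay on one side of the mean at 20 mg/kg, 6 of each kind for the difference of the steps, the 4 members of a list lowest in adjusted p at most, and other list members where their list is described. The comparison, its 45 gene lists and its tests were chosen with earlier results of these data known. The labels call the samples biological replicates, and no pooling is stated. The number of arrays limits the precision. Alternatives were other pseudocounts, filters and scalings, the mean of all probe sets, the fit of the compared groups alone, no variance trend, a replicate block and leaving out each mouse.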

Additional observations from a re-analysis of the deposited data

Results flagged for a closer look

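In 68 groups of 5 values (29 named genes and the array measures at both doses), 8 had 1 mouse whose gap to the nearest other exceeded Dixon's 95% critical value. For normal values and independent groups, chance gives this in about 1 group of 20. The genes were taken on linear signals, not on log2, and groups that share a mouse are not independent. The 8 can therefore not be set against that rate. Mouse 4 at 40 mg/kg stood above the rest of its group in Rnd1 (13758, others 4953 to 7104), Cxcl2 (48001, others 17827 to 26497) and Fst (2174, others 840 to 1176). Its array had the lowest log2 ratio of 3′ to 5′ Actb probe sets, 0.977 against 1.09 to 1.13 in the others. All 3 genes were still called without it, with log2 differences of 3.30 for Rnd1, 2.94 for Cxcl2 and 2.20 for Fst.

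Mouse 3 at 40 mg/kg stood above its group in Arhgef15 (67.7, others 17.5 to 31.3), all of them under the filter of 165. At 20 mg/kg, mouse 2 was apart in Rgs16 (2663, others 624 to 1033) and mouse 1 in Fam209 (268, others 141 to 173). The array of mouse 3 at 20 mg/kg had a log2 ratio of 3′ to 5′ Gapdh probe sets of -0.472, against -0.329 to -0.299 in the others. The part of these ratios in any difference was not tested.

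Probe sets without a single named gene, which no comparison above used, also differed between the doses. Of 4204 tested on the signals as deposited, 57 were higher and 267 lower at 40 mg/kg. Both are smaller shares than the 2.78% higher and 8.68% lower of the 12678 genes. These probe sets were not tested after centring.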

How the results depend on the processing

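The 24 genes named as highest and lowest at 40 against 20 mg/kg kept their call and direction in every alternative that tested them. This covers 478 values from 20 alternatives, with a highest adjusted p of 0.0384. A gene that the stricter filter removed was not tested there. Quantile normalization gave 600 genes higher and 462 lower at 40 mg/kg, and centring gave 944 calls, 419 of them lower. For the difference of the steps, quantile normalization gave 607 more positive genes, 269 of them at least 2-fold, and centring gave 612 more positive. With 1 mouse left out, 912 to 1666 genes were called between the doses, 265 to 328 higher and 618 to 1338 lower, with 96 to 129 at least 2-fold higher and 89 to 144 at least 2-fold lower. For the steps the ranges were 519 to 1002 calls, 198 to 387 more positive and 317 to 662 more negative, with 134 to 203 and 158 to 264 at least 2-fold. The lowest totals came without mouse 3 at 40 mg/kg between the doses and without mouse 4 at 20 mg/kg for the steps, and the cause was not tested. Fkbp4 was the 1 gene that reversed, at 0.084 (adjusted p = 0.839) with the mean of all probe sets and -0.57 with the brightest one. Of 222 list members and named genes called between the doses, 128 kept the call in every alternative that tested them, 22 lost it in 1 or 2 and 72 in more. Of 128 called for the steps, 61 kept it, 26 lost it in 1 or 2 and 41 in more.

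With the replicate number as a block, 1404 genes were called between the doses (349 higher and 1055 lower, 116 and 111 at least 2-fold) and 931 for the steps (370 and 561, 190 and 222 at least 2-fold). Correlations of same-numbered mice ran between -0.0777 and 0.0338 and averaged -0.0238 over 5 pairs, against 0.00595 over 20 other pairs, so the numbers gave no sign of pairing. Saturation of bright probe sets and detection of dim ones could not be judged, and signals under 165 carry little information on fold changes.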
